A study of Drosophila melanogaster with 2 samples.

Results

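Chromosome 4 of Drosophila melanogaster, the small dot chromosome, carried 707 of the 30000 peaks in the pooled list for CG17568-GFP. These members were chosen by position alone, as every pooled peak that the files place on chr4. Of the 707 peaks, 27 were also in the authors' list thresholded by the irreproducible discovery rate (IDR), with the same summit and the same signal value, and 680 were not. The authors name the pooled list peaks and background, as input for IDR. A peak outside the IDR list may therefore be background. Chromatin immunoprecipitation followed by sequencing (ChIP-seq) was done on whole embryos of mixed sex, aged 0 to 20 h, of a transgenic line that stably carries CG17568, a predicted zinc finger protein, fused at its C-terminal end to GFP. There is 1 group with 2 biological replicates, numbered 1 and 2, and the labels give no other genotype, treatment or time. They call the assay a transcription factor ChIP-seq but describe both samples as input controls. Both were read here as ChIP, and the results hold only if that reading is right. Whole embryos mix all cell types and stages, so a peak cannot be tied to a tissue.

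The dot chromosome is unusual among fly autosomes. It is largely packaged in heterochromatin marked by HP1 and H3K9 methylation and is bound along its genes by the protein POF, yet many of its genes are actively transcribed. Remnants of the transposable elements INE-1 and 1360 lie scattered between and within its genes. Several of these genes are well known from development, among them pan, the transcription factor at the end of the Wg (Wnt) pathway, ci, the transcription factor of the Hedgehog pathway, and the eye gene ey.

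The sequences under 8 of the strong chromosome 4 summits are shown first. The 8 windows are those of highest signal among the IDR peaks whose window overlapped no annotated UTR. Each is 101 bases long, centred on the summit, and printed from the plus strand of the Release 6 genome (the build named dm6), 5′ to 3′. Capitals mark matches, on either strand, to the 10 8-mers most frequent at IDR summits on the other chromosomes relative to their flanks.
zfh2, chr4:497840-497940: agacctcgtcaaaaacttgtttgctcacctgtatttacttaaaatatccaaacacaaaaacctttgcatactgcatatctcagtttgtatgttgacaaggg
lncRNA:CR43437, chr4:424769-424869: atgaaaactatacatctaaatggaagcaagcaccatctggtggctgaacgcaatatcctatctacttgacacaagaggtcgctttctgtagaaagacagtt
ATPsynbeta, chr4:1031932-1032032: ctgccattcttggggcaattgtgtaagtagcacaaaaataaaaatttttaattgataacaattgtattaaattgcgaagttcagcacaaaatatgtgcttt
FBtr0445478_df_nrg, chr4:404475-404575: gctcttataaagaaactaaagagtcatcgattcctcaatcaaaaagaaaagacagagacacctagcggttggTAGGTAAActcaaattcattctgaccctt
Pur-alpha, chr4:558726-558826: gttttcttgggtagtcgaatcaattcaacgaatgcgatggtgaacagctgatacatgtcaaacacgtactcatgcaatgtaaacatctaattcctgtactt
gw, chr4:660122-660222: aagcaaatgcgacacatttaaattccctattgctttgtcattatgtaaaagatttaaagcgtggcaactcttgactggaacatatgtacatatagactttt
Mitf, chr4:1199345-1199445: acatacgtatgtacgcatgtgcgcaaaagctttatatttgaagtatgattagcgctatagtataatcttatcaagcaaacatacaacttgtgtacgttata
Sox102F, chr4:807479-807579: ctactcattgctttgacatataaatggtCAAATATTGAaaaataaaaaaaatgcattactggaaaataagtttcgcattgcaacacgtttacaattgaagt

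In these windows, only the sites near FBtr0445478_df_nrg and Sox102F hold one of the 8-mers. The 8-mer TAGGTAAA lies at higher coordinates than the summit base in the former, and in the latter AATATTGA and AATATTTG overlap on opposite strands. The windows at Cals, RpS3A, CaMKI, CG31999 and myo (summit 695325), also among the 12 strongest sites, overlap UTRs and are described without their sequence.

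The lists carry, for each peak, a signal value from the authors' processing, whose scale is not stated, so values rank peaks within a list and do not measure occupancy. The files hold no read counts, and the depth of each replicate is unknown. All lists were called on the same genome, with 30000 relaxed peaks in the pooled list and in each replicate's own list. Exactly 3396 pooled peaks reached the lowest IDR signal of 127, so the IDR list is the top of the pooled list. With 1 group of 2 replicates, no test over samples was possible. Shares are given with Wilson 95% intervals, which treat peaks as independent and cover counting error only.

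The strongest site on chromosome 4 lay between genes, upstream of zfh2, which encodes a zinc finger homeodomain transcription factor. Its summit at 497890 (peak 497725 to 498067) was 3920 bp upstream of the nearest start site (TSS), with a signal of 819. It ranked 93 in the pooled list, 75 in replicate 1 and 116 in replicate 2. The gene had another IDR peak on its start site, with the summit at 501799, 11 bp upstream, a signal of 188 and rank 1708. That peak ranked 1682 and 1855 in replicates 1 and 2. The pair of zfh2 summits was 3909 bp apart, and the distal one stood far above the promoter one in both replicates.

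The next site had a signal of 532 and rank 225, with ranks of 222 and 254 in the replicates. Its summit at 1113309 (peak 1113172 to 1113455) fell in the 3′ UTR of both Cals, which encodes calsyntenin, a cadherin-related protein of synapses, and sv, a Pax family transcription factor gene. It was 9656 bp downstream of the nearest TSS, that of Cals. Neither gene carried an IDR summit at its promoter.

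RpS3A, a ribosomal protein gene of the small subunit, had the strongest promoter peak. The summit at 67198 (peak 67119 to 67272) was 9 bp downstream of the TSS in the 5′ UTR, with a signal of 419 and rank 387. It ranked 516 in replicate 1 and 351 in replicate 2. Close by, pan had 3 IDR peaks, with summits 961 bp upstream (68365, signal 134), 98 bp downstream (69424, signal 174) and 66 bp upstream (70339, signal 162) of its nearest TSS. These 4 summits lay within the first 100 kb of the chromosome, next to each other in the order of IDR peaks.

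The next sites were upstream of lncRNA:CR43437 and at CaMKI, a calcium/calmodulin-dependent kinase gene. The intergenic summit at 424819 (peak 424739 to 424919) had a signal of 317 and rank 656, with replicate ranks of 830 and 623. It was 1248 bp upstream of lncRNA:CR43437 and 19092 bp from the nearest coding start, that of lgs. The CaMKI summit at 446174 (peak 445976 to 446371) was 81 bp downstream of the TSS, with a signal of 308, rank 707 and replicate ranks of 636 and 987. The promoter of lgs, which encodes the Bcl9-related cofactor of Armadillo in Wg signalling, had a summit at 443800, 111 bp downstream. It had a signal of 139 and rank 2895, and the CaMKI and lgs summits were 2374 bp apart.

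The 7 sites that followed had signals from 291 down to 223. CG31999 had a summit 133 bp upstream of its nearest TSS (226089, peak 225891 to 226286, signal 291, ranks 695 and 1065 in replicates 1 and 2). ATPsynbeta, the beta subunit gene of the mitochondrial ATP synthase, had one 118 bp downstream (1031982, peak 1031784 to 1032179, signal 266, ranks 1078 and 884), and this summit also lay within 500 bp of a TSS of CG11076. The miRNA silencing gene gw, which encodes a GW182 protein, had one 189 bp upstream of a TSS, inside an intron (660172, peak 659974 to 660369, signal 232, ranks 1388 and 1183). These 3 genes carried their peak at a promoter in the pooled list and had it in both replicates.

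The other 4 of these sites lay outside the 500 bp promoter window. The summit at 404525 (peak 404447 to 404633) was intergenic with a signal of 256, ranked 706 and 1554 in replicates 1 and 2, and was 8920 bp upstream of dati, a zinc finger transcription factor gene. A weaker IDR summit followed it at 407057, with a signal of 189. Pur-alpha, a single-stranded nucleic acid binding protein gene, had an intronic summit 553 bp downstream of a TSS (558776, peak 558578 to 558973, signal 242, ranks 1107 and 1373). Mitf, the MiT family bHLH factor gene, had one 537 bp downstream (1199395, peak 1199197 to 1199592, signal 224, ranks 892 and 1483). The TGF-beta family ligand gene myo had one 730 bp downstream in its 5′ UTR (695325, peak 695127 to 695522, signal 223, ranks 1273 and 1416) and a weaker one 709 bp upstream (696764, signal 160). Pur-alpha, Mitf and myo were thus just beyond the promoter limit, and a wider window counts them in.

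The last 15 IDR peaks had signals between 129 and 214. Besides those already described at zfh2, pan, lgs, myo and dati, they lay at the promoters of Sox102F, a SoxD transcription factor gene with 2 summits 182 and 387 bp upstream of a TSS, MED26, a Mediator subunit gene (80 bp downstream), NfI, a nuclear factor I gene (88 bp upstream of its coding TSS and 66 bp upstream of lncRNA:CR44023), CG1674 (18 bp upstream) and Taf3, a subunit gene of the general factor TFIID (119 bp downstream). The remaining pair was an intergenic summit 4449 bp upstream of fuss, a Ski/Sno family gene, and the summit at 167801 in coding sequence of CG33978, 7339 bp from a TSS. Taf3, with a signal of 129 and rank 3301, was the weakest chromosome 4 peak inside the IDR list. Just outside it, Asator had a signal of 125 (125.498) and rank 3472, followed by myo (118), Ephrin (117), an intergenic site near lncRNA:CR45123 (117) and Sox102F (117).

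**Figure D1:**
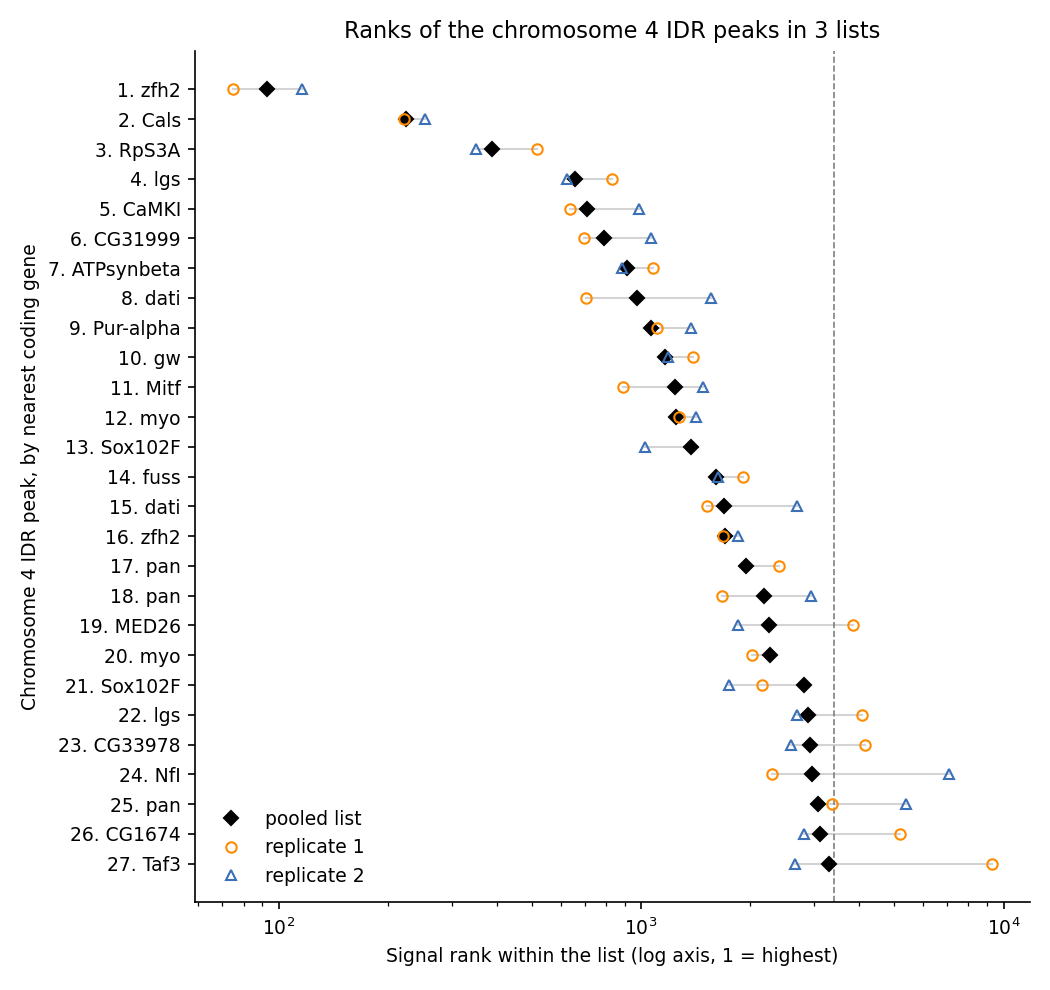
Signal rank (log axis, 1 is the highest) of each of the 27 chromosome 4 IDR peaks in the pooled list (filled diamonds), replicate 1 (circles) and replicate 2 (triangles). Peaks are named by the nearest coding gene, a missing symbol means no summit within 100 bp, and the dashed line marks rank 3396. The zfh2 site stands highest in all 3 lists, and the spread between replicates is widest at Taf3 and NfI.

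Recovery in each replicate's own list was high for these 27 sites. A summit of replicate 1 lay within 100 bp of 26 of them and a summit of replicate 2 within 100 bp of 25. Both replicates had one at 24 (88.9%, interval 71.9 to 96.1), against 94.5% of all IDR peaks in the genome. The pooled list was made from both replicates, so recovery follows in part from pooling. Of the 24 found in both, 13 ranked higher in replicate 1 and 11 in replicate 2. Ranks ran from 75 to 9280 in replicate 1 and from 116 to 7070 in replicate 2. The largest disagreements were at weak sites, with Taf3 at 9280 and 2659 and the NfI site at 2298 and 7070 in replicates 1 and 2.

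The 3 sites missing from a replicate had a summit there a little farther away. The Sox102F summit at 807529 was 154 bp from the nearest summit of replicate 1, whose summit lay 51 bp from the neighbouring Sox102F peak at 807734. The pan summit at 69424 was 110 bp, and the myo summit at 696764 was 107 bp, from the nearest summit of replicate 2. Within 200 bp all 27 were found in both replicates. When only the 3396 highest peaks of each replicate were used, 17 of the 27 (63.0%, interval 44.2 to 78.5) were found in both, beside 66.5% elsewhere. Called from 1 replicate alone, the 3396 highest peaks held 24 chromosome 4 sites in replicate 1 and 31 in replicate 2, of which 18 were shared.

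Most chromosome 4 peaks were weak. The IDR list took 27 of 707 chromosome 4 peaks (3.82%, interval 2.64 to 5.50), while it took 11.3% of pooled peaks in the genome and 10.9% to 12.1% on each other arm. Among the 27 the median signal was 194, close to the 188 of the 3369 IDR peaks elsewhere. Among the 680 it was 44.9, against 47.9 for the 25924 peaks outside the IDR list elsewhere. The median −log10 q-value was 2.81 among the 27 and 0.513 among the 680, where the highest was 2.03. The share of peaks on chromosome 4 was 0.800% among the 3000 highest pooled peaks, 1.30% and 1.60% in the next blocks of 3000, and between 2.53% and 3.17% in the 7 blocks from rank 9001 on. Replicate 1 went from 0.767% in its highest block to 3.13% in its lowest and replicate 2 from 0.900% to 2.70%. In density, chromosome 4 held 524 pooled peaks per Mb against 186 to 263 per Mb on the other arms, and 20.0 IDR peaks per Mb against 22.3 to 30.0.

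**Figure D2:**
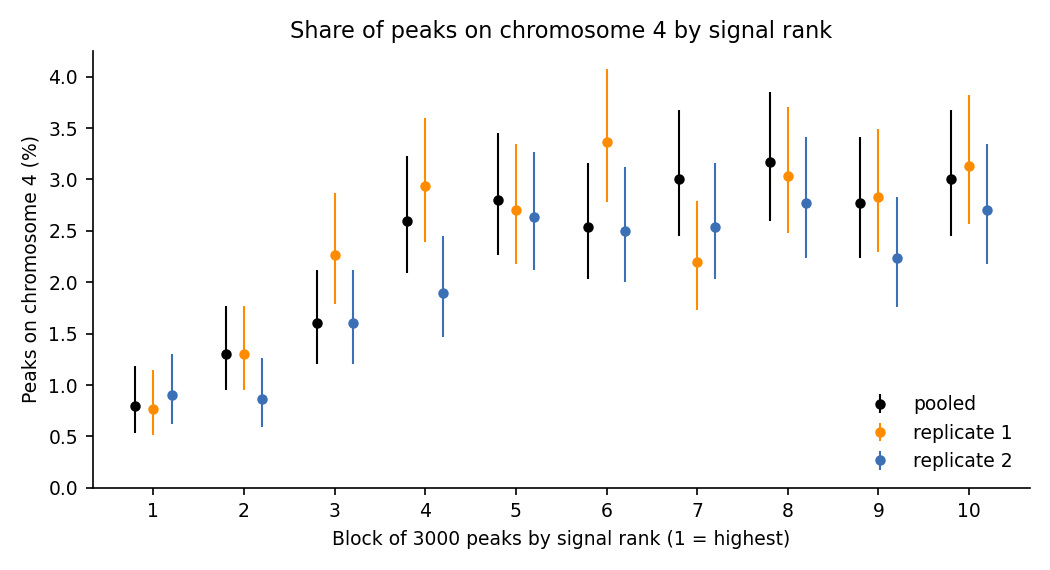
Percent of peaks that lie on chromosome 4 in successive blocks of 3000 peaks by signal rank, for the pooled list and each replicate, with Wilson 95% intervals. The share is 0.767% to 0.900% in the first block of the 3 lists and 2.70% to 3.13% in the last, and replicate 2 is lowest in its second block, at 0.867%.

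Of the 680 chromosome 4 peaks outside the IDR list, 427 (62.8%, interval 59.1 to 66.3) had a summit within 100 bp in replicate 1, 394 (57.9%, 54.2 to 61.6) in replicate 2 and 220 (32.4%, 28.9 to 36.0) in both, and 79 had none in either. Over the whole pooled list 43.6% of peaks were found in both replicates, and 37.3% (36.7 to 37.8) of peaks outside the IDR list elsewhere. At ranks up to 10000 the share found in both was 72.6% on chromosome 4 (82 of 113, interval 63.7 to 79.9) and 77.5% elsewhere. Beyond rank 10000 it was 24.3% (138 of 567, 21.0 to 28.0) and 23.8%, so in each of these rank classes the chromosome 4 interval took in the value elsewhere. The replicate lists held 736 and 619 chromosome 4 peaks, of which 254 were within 100 bp of a summit of the other list. That was 34.5% (interval 31.2 to 38.0) in replicate 1, against 44.3% elsewhere. In replicate 2 it was 41.0% (37.2 to 45.0), against 44.1% elsewhere.

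A promoter peak was defined by distance alone. A summit within 500 bp of an annotated TSS was found for 15 of the 27 (55.6%, interval 37.3 to 72.4), where 42.6% of all IDR peaks in the genome had one, and for 149 of the 680 weaker peaks (21.9%, 19.0 to 25.2). Of all pooled peaks, 22.8% were at promoters. Bases within 500 bp of a TSS make up 10.7% of chromosome 4 and 13.6% of the other arms. The intervals of the IDR and the weaker chromosome 4 peaks did not overlap. They did overlap when only the upper 50% of the IDR list was counted, with 6 of 15 summits at promoters (40.0%, interval 19.8 to 64.3) against 22.8% (19.9 to 26.1) of the other chromosome 4 peaks. Just below the IDR list, at ranks up to 10000, 58 of 113 chromosome 4 summits (51.3%, 42.2 to 60.3) were at promoters, beside 30.6% (29.5 to 31.7) elsewhere. Beyond rank 10000 the shares were 16.0% (13.3 to 19.3) and 16.8%.

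Around the TSS, the 15 promoter summits ran from 387 bp upstream to 119 bp downstream, with a median of -11 bp. Of these, 8 were upstream (53.3%, interval 30.1 to 75.2), beside 66.1% (63.6 to 68.5) of IDR promoter summits elsewhere. Among weaker chromosome 4 peaks 67 of 149 promoter summits were upstream (45.0%, 37.2 to 53.0), against 56.7% (55.4 to 58.1) elsewhere. The weaker promoter summits of chromosome 4 had a median of 52 bp downstream of the TSS, and those elsewhere -45 bp. Outside promoters, 5 IDR summits were between 500 and 1000 bp from a TSS and 7 farther away.

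**Figure D3:**
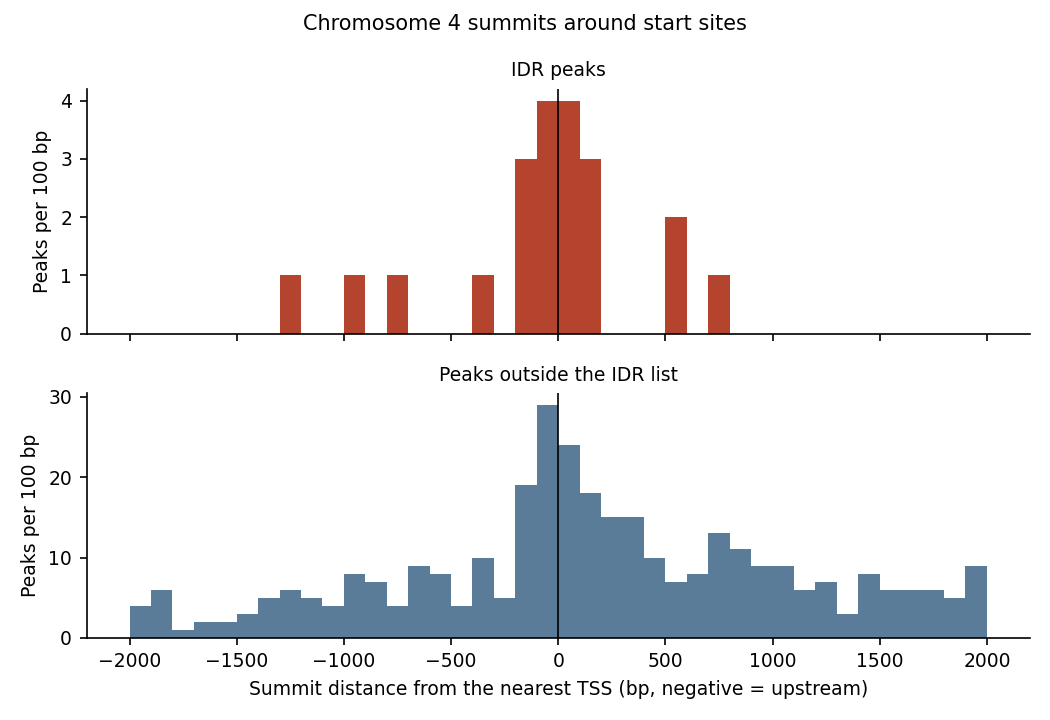
Number of chromosome 4 summits per 100 bp by distance from the nearest TSS (bp, negative is upstream), for IDR peaks (top) and peaks outside the IDR list (bottom), within 2000 bp. The IDR summits cluster at the start site, and the weaker summits peak there as well but spread downstream into the gene.

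Nearly every coding gene of the chromosome had a pooled summit at its start, but most had only weaker ones. Of the 80 protein-coding genes, 14 (17.5%, interval 10.7 to 27.3) had an IDR summit within 500 bp of a TSS, against 10.1% of coding genes in the genome and 8.52% to 11.7% on each other arm. A further 62 had only weaker summits there, so that 76 (95%, interval 87.8 to 98.0) had a pooled summit, against 29.2% in the genome and 25.7% to 33.5% on each other arm. The 4 genes without one were yellow-h, Syt7, fd102C and sv, named here after their values were seen. The pooled list includes background, so the 62 genes with only weaker summits are not shown to be bound. At mGluR, for instance, the best promoter summit ranked 26059. Neighbouring genes can share a summit, as ATPsynbeta and CG11076 did, so genes are not independent. All 80 gene bodies held at least 1 pooled summit, with a median of 6, and pan held the most, with 27 in 44945 bp. The share of gene bodies with a summit was not computed for the other arms. The median was 0.593 summits per kb of gene body, and pan had 0.601, on a chromosome with 524 pooled peaks per Mb. The density of pooled peaks differs between arms as given above, and its part in the promoter and gene body shares was not tested.

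**Figure D4:**
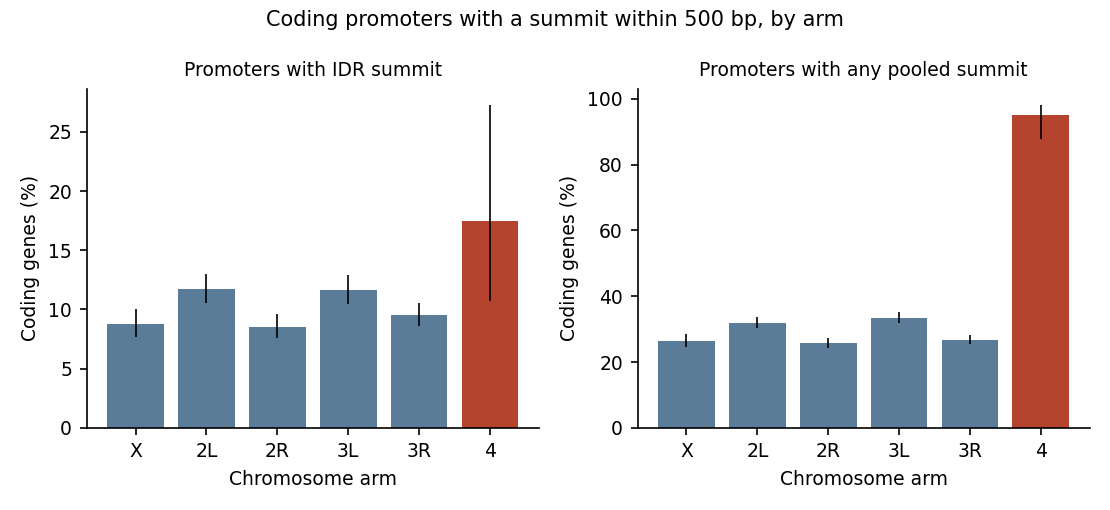
Percent of protein-coding genes on each arm with an IDR summit (left) or any pooled summit (right) within 500 bp of a TSS, with Wilson 95% intervals. Chromosome 4, with 80 genes, reaches 17.5% on the left, where its interval is wide, and 95% on the right, where no other arm is above 33.5%.

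By function, the 14 genes with an IDR promoter were spread over several groups. The counts in each list are to be read against 14 of all 80 coding genes of the chromosome with an IDR summit at the promoter (17.5%) and 62 of 80 with weaker summits only, and no list was tested against them. Of 13 developmental transcription factor genes, 4 had an IDR summit at the promoter, Sox102F (signal 214), zfh2 (188), pan (174) and NfI (137), 8 had weaker summits only, and sv had none. The 8 were Mitf, toy and ey (both Pax6 genes), ci, the Polycomb group gene pho, Hcf, the homeobox gene onecut and dati.

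Of 8 signalling genes, lgs (signal 139) had an IDR promoter summit and the other 7 had weaker ones. The highest of these were at myo (118), Ephrin, a guidance ligand gene (117), and the plexin receptor gene PlexA (102). The others were PlexB, the Ephrin receptor gene Eph, and mav and Actbeta, which like myo belong to the TGF-beta family. Of 7 synaptic and neuronal genes, CaMKI had an IDR summit (308), Syt7 had none, and 5 had weaker ones. The synaptic vesicle priming gene unc-13 reached 100.04, Cals 83.4 and Cadps 71.6, and the transporter gene Gat and the glutamate receptor gene mGluR were lower.

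Of 7 genes of translation, RNA and metabolism, RpS3A (419), ATPsynbeta (266) and gw (232) had IDR promoters. The other 4 had weaker summits, at Rad23, a proteasome shuttle gene (100.3), the translation initiation gene eIF4G1, the thymine DNA glycosylase gene Tdg, and PIP4K. Of 6 cytoskeletal and muscle genes none had an IDR promoter and all 6 had weaker summits, at Ank (98.7), Crk (96.7), Zyx (94.4), the titin-related gene bt (73.8), RhoGAP102A and Kif3C. Of the 39 coding genes in none of these lists, 5 had an IDR promoter and 32 weaker summits. Each of the 5 lists had at most 1 gene without a pooled summit at its promoter.

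Of the 27 IDR summits, 8 (29.6%, interval 15.9 to 48.5) were in 5′ UTRs, against 53 of the 680 weaker summits (7.79%, 6.01 to 10.1). For introns, intergenic sequence, coding sequence and 3′ UTRs the intervals of IDR and weaker summits overlapped. The other IDR summits were 8 in introns (29.6%), 9 (33.3%) intergenic, 1 in coding sequence and 1 in a 3′ UTR. Elsewhere 12.4% of IDR summits were in 5′ UTRs and 54.9% in introns. Of the 680 weaker summits, 337 (49.6%, interval 45.8 to 53.3) were in introns and 139 (20.4%) intergenic. Coding sequence held 69 of them (10.1%, interval 8.10 to 12.6), against 1.37% (1.23 to 1.52) of weaker summits elsewhere, and 3′ UTRs held 67 (9.85%, 7.83 to 12.3), against 4.33% (4.09 to 4.59). Coding sequence makes up 19.5% of chromosome 4 bases and 16.7% of bases elsewhere, and 3′ UTRs 7.305% and 4.92%. Beyond rank 10000 the coding share on chromosome 4 was 11.3% (64 of 567).

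**Figure D5:**
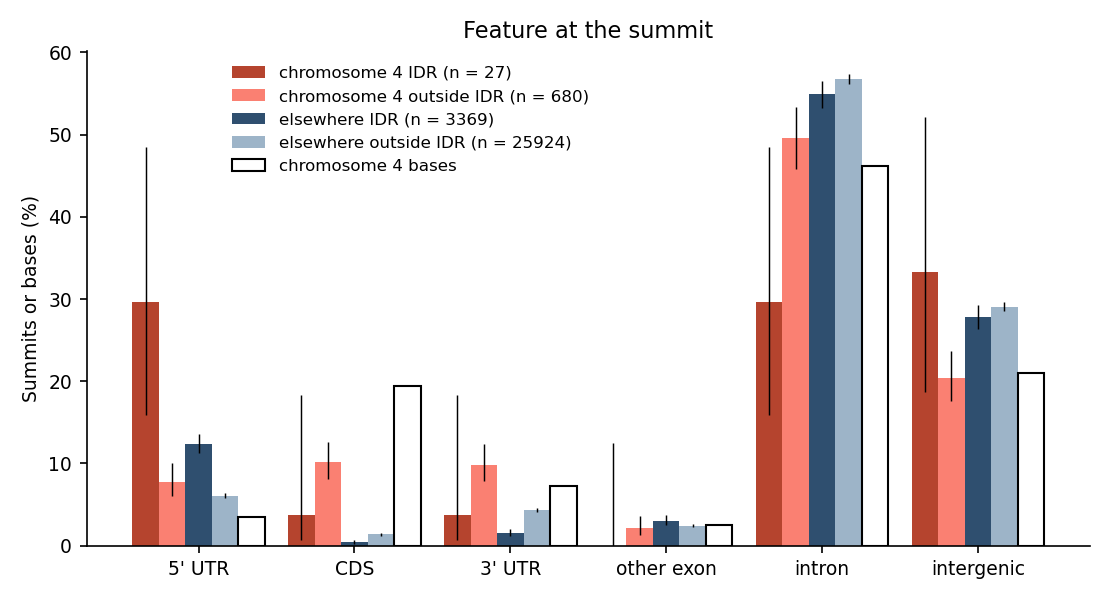
Percent of summits in each annotated feature for IDR and weaker peaks on chromosome 4 and elsewhere, with Wilson 95% intervals, beside the percent of chromosome 4 bases (white). Weaker chromosome 4 summits are in coding sequence in 10.1% of cases against 1.37% elsewhere, and IDR summits of chromosome 4 are in 5′ UTRs in 29.6%.

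Annotated transposable elements cover 24.8% of chromosome 4 and 5.74% of the other arms. None of the 27 IDR summits lay in one (0 of 27, interval up to 12.5%), and 107 of the 680 weaker summits did (15.7%, interval 13.2 to 18.7). Elsewhere the shares were 0.148% of IDR and 0.760% of weaker summits. On chromosome 4, INE-1 copies held 69 summits (9.76% of 707) on 7.22% of bases, and 1360 copies held 16 (2.26%) on 3.79%. How reads from repeats were mapped is not given in the sources used here, and its part in these shares was not tested. The last 48131 bp of the chromosome, 95.4% of which is annotated as transposable elements, held no pooled peak.

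Along the rest of the chromosome, in 100 kb blocks, the number of pooled peaks was between 52 and 69, apart from 34 in the block from 700001 to 800000 and 26 in the block from 1200001 to 1300000. The IDR peaks numbered 7 in the block from 400001 to 500000, which holds the distal zfh2 site, both sites upstream of dati and those at CaMKI, lgs, lncRNA:CR43437 and Taf3, and 4 in the first block. There were none in the blocks that start at 300001 and 1200001. The median distance between neighbouring pooled summits was 1110 bp (1109.5, quartiles 666 and 2044), against medians of 1168 to 1382 bp on the other arms. The smallest distance was 199 bp on every arm. Between neighbouring IDR summits the median was 25858 bp against 8258 to 12465 bp elsewhere, and 7 of 26 distances were under 3000 bp. This was near the share on the other arms, with 136 of 524 on X, 184 of 704 on 2L and 159 of 569 on 2R. On 3L it was 230 of 792, and on 3R 207 of 775.

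The base composition of the windows (101 bp) followed the chromosome only in part. The median GC content was 36.6% at IDR summits and 32.7% at weaker ones, on a chromosome with 35.2% GC. Elsewhere the order was the other way round, with 33.7% at IDR and 36.6% at weaker summits, where the arms have 41.6% to 42.6% GC. A median of 18.8% of bases was soft-masked as repeat or low complexity at chromosome 4 IDR summits and 26.2% at weaker ones, against 21.8% at both kinds elsewhere.

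Motifs were sought as exact letters on either strand within 50 bp of the summit. The TATA element TATAAA and the A tract AAAAAA were each in 6 of 27 windows (22.2%), against 18.8% and 31.1% of all pooled windows, and GCCAT, the core of the Pho site, in 4 (14.8%, against 15.5%). GAGAG, bound by the GAGA factor, was in 3 (11.1%, against 11.5%), at the zfh2 promoter, the weaker Sox102F site and the NfI site. CAGCTG (an E-box), CAGGTAG (Zelda), CGATA (within the BEAF-32 site and, in part, the DREF site) and AGNNGGCGC (CTCF core) were each in 1 window, at Pur-alpha, pan, CG1674 and the intergenic site at 407057. Within 100 bp of the summit, CGATA was in 7 of 27 windows (25.9%) and TATAAA in 14 (51.9%). A wider window can only raise a share, and no pooled share is given at that width, so enrichment there was not tested. In the flanks of these 27 sites, windows of 101 bp placed 300 bp to either side, TATAAA was in 13 of 54 and CGATA in 7 of 54. Within 50 bp, over all pooled windows, the shares were 3.39% for the E-box, 0.377% for the Zelda motif, 11.7% for CGATA and 0.860% for the CTCF core. TATCGATA (DREF, which contains CGATA), CACACACA and GGTCACACT (M1BP) were in none, against 0.443%, 2.24% and 0.163%. In 11 of the 27 windows, among them the strongest at zfh2 and the one at CaMKI, none of the 11 motifs was found. In the 680 weaker chromosome 4 windows, TATAAA was in 24.1%, AAAAAA in 38.7%, GCCAT in 10.7%, GAGAG in 9.85% and CGATA in 17.6%.

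The 10 8-mers taken from IDR summits on the other chromosomes were led by TAGGTAAA, AATATTGA and ACCGGAAA. At least 1 of the 10 was in 15.5% of IDR windows elsewhere, which chose them, and in 4.10% of their flanks, 300 bp to either side. On chromosome 4 they were in 3 of 27 IDR windows (11.1%, interval 3.85 to 28.1), in 61 of 680 weaker windows (8.97%) and in 2 of 54 flanks (3.70%). Over all pooled windows the share was 9.23%. The 3 sites were the RpS3A promoter with ACCGGAAA and the 2 shown above in capitals, near FBtr0445478_df_nrg and at Sox102F. The wide interval of the 27 windows took in both the 15.5% of IDR windows elsewhere and the 9.23% of all pooled windows.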

How the data were processed

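The authors deposited peak lists on dm6, per the labels, in narrowPeak columns. The deposited score used here is the signal value, beside the −log10 q-value and the summit offset of each peak. The sources used here do not give the peak caller, the aligner or the IDR threshold. Summits were placed on Release 6 with Ensembl release 115 (BDGP6.54) gene models, from which transposable elements were left out. A summit in several features was assigned to a 5′ UTR before coding sequence, then a 3′ UTR, another exon, an intron or none. Python 3.11.15, pandas 2.3.3 and scipy 1.17.1 were used, and placing, matching within 100 bp and motif search were tested on simulated data. All 27 IDR peaks were named, the 12 highest singly, with the 5 highest outside the list and 5 gene lists (41 genes, all matched, Thd1 as Tdg), giving up to 4 values per list. Members and lists were chosen with earlier results of these data known. The 8-mers were those in at least 1% of IDR windows elsewhere with the highest ratio to flanks. No p-value was computed. Alternatives changed the promoter window, match distance, list length, spacing, window size and replicates.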

Additional observations from a re-analysis of the deposited data

How the results depend on the processing

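Of 42 alternatives outside the motifs, 17 moved a value by no more than its counting interval or replicate spread and 25 moved it further. For spacing, GC content and masked share, that spread was the standard deviation of the 2 values with 1 replicate left out. It cannot judge those same values, so their part in this tally does not show whether leaving out a replicate matters. In the upper 50% of the IDR list chromosome 4 had 15 peaks (2.12% of its pooled peaks, 5.75% elsewhere), and with 2 times as many pooled peaks 69 (9.76%, and 23.0% elsewhere). With 1 replicate left out it had 24 to 31. IDR summits at promoters were 74.1% within 1000 bp of a TSS and 40.0% in the upper 50% of the list. For weaker peaks that share was 15.4% within 250 bp, 34.3% within 1000 bp, 18.4% with coding start sites only and 18.8% with the longer list. Recovery of IDR peaks in both replicates was 70.4% within 50 bp, 100% within 200 bp or by overlap of intervals, and 63.0% in the highest 3396 peaks. For weaker peaks it was 21.2%, 44.7%, 59.9% and 0%. The weaker peaks rank below 3396 in a list pooled from both replicates, so the last value was nearly fixed in advance. For weaker peaks elsewhere that value was 0.0270% (7 of 25924). Median spacing was 1385 bp with summits within 500 bp merged, and 1112 to 1187.5 bp with 1 replicate left out. In windows reaching 100 bp either side the median GC content was 35.3% and the masked share 20.9%. With 1 replicate left out, an alternative added after seeing the data, they were 35.6% to 36.6% and 19.8% to 21.8%. Of 21 motif alternatives 19 stayed within the interval, and with 100 bp either side CGATA moved from 3.70% to 25.9% of IDR windows and TATAAA from 22.2% to 51.9%. By definition, a longer list can only add peaks to it, and a wider promoter, match or motif window can only raise a share. The cause of the other changes was not tested. No paired analysis was possible because there is only 1 group. The depth behind the lists is unknown, and 27 IDR peaks leave wide intervals.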

Other observations

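The motif TATCGATA, bound by DREF, was in 15 of the 680 weaker chromosome 4 windows (2.21%, interval 1.34 to 3.61) and in 102 of 25924 weaker windows elsewhere (0.393%, interval 0.324 to 0.477). This motif was singled out after its values were seen. On chromosome 4, 10 of the 15 summits lay in INE-1 copies and 0 at promoters, while elsewhere 11 lay in transposable elements and 50 at promoters. The 15 peaks ranked from 8191 to 28468, and 5 were found in both replicates. Shown here are the 2 of highest signal among the INE-1 windows that overlap no annotated UTR, from the plus strand of Release 6, with the motif in capitals.
chr4:180799-180899: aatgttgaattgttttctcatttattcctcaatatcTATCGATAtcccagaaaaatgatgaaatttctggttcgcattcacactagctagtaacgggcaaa
chr4:979380-979480: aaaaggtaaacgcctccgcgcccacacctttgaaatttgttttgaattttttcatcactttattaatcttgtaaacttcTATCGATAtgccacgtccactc
Their signals were 68.6 and 65.9. The first had no summit of replicate 2 within 100 bp (the nearest was 174 bp away), and the second was found in both replicates.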
